A study of Rattus norvegicus with 2 samples.

Results

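The glycolytic enzymes carry glucose to pyruvate, from hexokinase, which phosphorylates glucose on entry, to pyruvate kinase, which makes the last ATP of the pathway. The 10 genes listed here are Hk1, Gpi, Pfkp, Aldoa, Aldoc, Tpi1, Pgk1, Eno1, Eno2 and Pkm, taken from every step but those of Gapdh and the phosphoglycerate mutases, and including isoenzymes known from neurons and ubiquitous ones. A member counted as measured if the probe-to-gene table pairs a probe set, which sums up several short probes against a transcript, with its symbol alone. By this rule 9 of the 10 were measured, of 14217 genes on the array, and all 9 passed the signal rule, by which the signal on either side had to reach the median of its array. Pkm was the exception. Its probe set is paired with Pkm and with a pseudogene of it, so the signals of 1609 for control and 1632 for tumor belong to both and enter no count.

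Neurons and the glia around them depend on glucose, and in the dorsal root ganglia (DRGs), where the cell bodies of sensory neurons (SNs) lie, neurons express enolase 2, also called neuron-specific enolase, while aldolase C is known from the nervous system and aldolase A and enolase 1 from most tissues. The transcription factor HIF-1 is known to raise several of these genes when oxygen is low. In tumors glycolysis often runs fast and releases lactate and protons. The arrays were made to look for factors from SNs that stimulate the growth of bone-destroying cancer cells.

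IP-B12, a lung carcinoma line of the rat that destroys bone, was placed in the marrow of the right tibia of 4-week-old female Sprague-Dawley rats (100000 cells), and DRGs were taken 14 days later. The tumor side is the DRGs of the right tibia and the control side the DRGs of the left tibia, so both come from tumor-bearing rats without a stated sham injection of the left leg. RNA of either side was hybridized to 1 array, and how many rats gave it is not stated in the methods. Without a second array of either side no test was made, and all differences describe these 2 arrays. The SD between log2 ratios of 2 probe sets of 1 gene, taken over genes of like mean signal, is given as a technical spread. Both probe sets were read on the same 2 arrays, so it leaves out variation between arrays, RNA samples and rats. Values for control and tumor are MAS5 signals of the control-side and the tumor-side array. DRGs are mixed tissue, in which fewer cells of a type and less RNA per cell cannot be told apart.

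The arrays were close in brightness, with the tumor-side array slightly brighter. The median signal was 69.0 for control and 72.7 for tumor, and over the 9695 genes above the signal rule the median log2 ratio, tumor over control, was 0.08. SN markers were bright, with signals from 370 to 12688 for control and from 327 to 12203 for tumor for the 14 measured of 15, and their median log2 ratio was -0.02. Skeletal muscle, granulocyte, erythroid and bone markers differed more and are given below beside the genes they touch. The signal ratio of the 3′ over the 5′ probe set of GAPDH, a measure of RNA integrity, was 1.2 for control and 1.23 for tumor. That of hexokinase was 1.45 and 1.37, from probe sets that did not meet the signal rule, and that of actin was 8.79 and 9.22. Actin thus had far less signal at its 5′ end on both arrays, so the GAPDH ratio alone does not show intact RNA.

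Glycolytic enzymes were bright on both arrays and differed little between the sides. All 9 signals lay at or above percentile 89.7 of their array. The 9 log2 ratios lay between -0.07 and 0.11, with a median of 0.01, which is 0.51% higher on the tumor side. None of the 9 was at least 1.2 times higher or lower. Of the genes above the signal rule, 12.0% were at least 1.2 times higher and 3.99% at least 1.2 times lower. These shares include genes far dimmer than the enzymes. For the 2267 genes at least as bright as the dimmest enzyme, percentiles 10 and 90 of the log2 ratio were -0.04 and 0.19. Both lie within a fold of 1.2, so most genes of this brightness did not pass it either. By sign alone, 6 of the 9 were higher on the tumor side and 3 were lower, a split that quantile normalization turned to 2 higher and both loess and median-centring to 1 higher. Among genes above the signal rule 70.9% were higher, and 79.9% of the 2267 genes at least as bright as the dimmest enzyme were. Read against the median gene, 1 of the 9 enzymes was above 0.08 and 8 were below it. The summed signal of the 9 was 34951 for control and 35530 for tumor, 1.66% higher, while the median gene was 1.06 times higher.

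**Figure D1:**
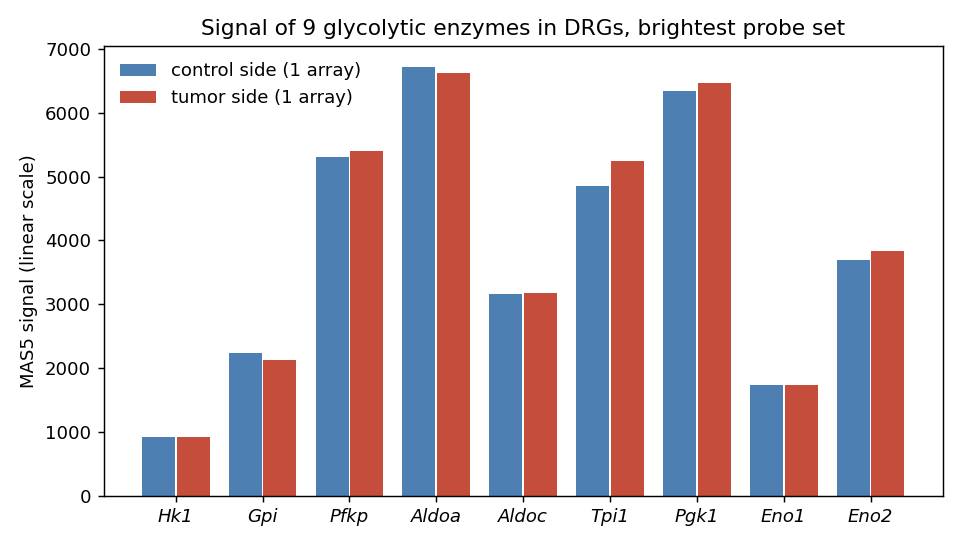
Signal on a linear scale for 9 glycolytic enzymes in the order of the pathway, 1 bar per array. Bars of 1 gene can be compared between the sides, from Gpi at 2236 and 2127 to Tpi1 at 4852 and 5243, while the heights of different genes depend on their probes and cannot.

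The first steps of the pathway trap glucose and commit it. Hk1, the hexokinase of brain and nerve, had a signal of 922 for control and 923 for tumor (log2 ratio 0.00, SD between probe sets of 1 gene at this signal 0.12). Gpi, which turns glucose 6-phosphate into fructose 6-phosphate, had 2236 and 2127 and was the lowest of the 9 (log2 ratio -0.07, SD 0.08). Pfkp, the platelet type of phosphofructokinase, had 5304 and 5405 (log2 ratio 0.03, SD 0.07). Hk1 and Pfkp thus differed by less than their SD, and so did Gpi. Of the 500 probe sets of most similar signal to Gpi, 481 had a higher log2 ratio and 19 a lower one. Gpi was picked as the lowest of the 9 by the same ratio, so this rank is no separate support.

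Aldolase and triose phosphate isomerase split the sugar and join its products. Aldoa, the aldolase of muscle and most other tissues, had 6711 for control and 6623 for tumor (log2 ratio -0.02, SD 0.06). Aldoc, the aldolase of the nervous system, had 3154 and 3170 (log2 ratio 0.01, SD 0.08). Both ratios were smaller than their SD. Tpi1 had 4852 and 5243, 8.04% more on the tumor side, and was the highest of the 9 (log2 ratio 0.11, SD 0.07). With the deposited values and with a pseudocount it was the only enzyme whose log2 ratio exceeded this SD. After the other scalings Tpi1 did not exceed it, while Gpi did in all 3, Aldoa after loess and median-centring and Eno1 after quantile normalization. Measured from the median gene, Gpi at -0.15 and Aldoa at -0.10 were further away than their SD, and Tpi1 at 0.03 was not. Of the 500 probe sets of most similar signal, 114 had a higher log2 ratio still. Scaling moved Tpi1 to between 0.03 and 0.11, and all of these values were above 0.

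The later steps make ATP. Pgk1, phosphoglycerate kinase, had 6335 for control and 6471 for tumor (log2 ratio 0.03, SD 0.06), and a second bright probe set gave 3300 and 3385 (log2 ratio 0.04). Eno1, the ubiquitous enolase, had 1738 and 1734 (log2 ratio 0.00, SD 0.09). Eno2, the neuronal enolase, had 3699 and 3835 (log2 ratio 0.05, SD 0.07). None of these exceeded its SD, and Eno2 and Pgk1 had ratios below that of the median gene, as Eno1 did. Gapdh, the enzyme between Tpi1 and Pgk1, is measured on 3 control probe sets along its transcript, with log2 ratios of 0.05 at the 3′ end, 0.10 in the middle and 0.01 at the 5′ end. Its further probe set is shared with another gene symbol and had 6711 and 6939.

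**Figure D2:**
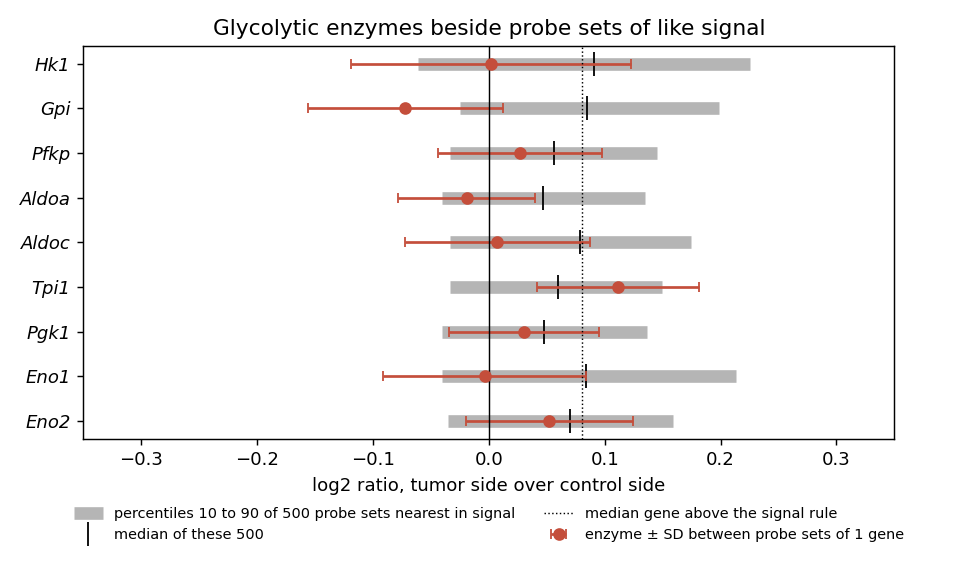
Log2 ratio of tumor over control for each enzyme (point) with the SD between probe sets of 1 gene (bar), beside the percentiles 10 to 90 (grey) and the median (tick) of the 500 probe sets nearest in signal. The dotted line is the median gene, 0.08. Of the 9 enzymes 8 lie inside the grey range, and Gpi lies below it.

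In 5 pairs of isoenzymes of the same step the ratios were set side by side. The log2 ratio of Eno2 was 0.06 above that of Eno1, where the SD of a difference between probe sets was 0.12, and that of Aldoc was 0.03 above that of Aldoa, with an SD of 0.10. Pfkp was 0.02 below Pfkl, the liver type, with an SD of 0.19, and 0.12 above Pfkm, the muscle type, with an SD of 0.12. A second Pfkm probe set above the signal rule had a log2 ratio of 0.18, which is above that of Pfkp. Hk1 was 0.44 below Hk2, the hexokinase of muscle and fat, with an SD of 0.32, but Hk2 had signals of 16.5 and 22.5 and did not pass the signal rule. At that brightness log2 ratios scatter widely. Each SD was taken at the mean signal of the pair, from probe sets above the signal rule, and so not at the signal of the dimmer gene. For Hk2 it therefore does not give the technical spread. The muscle enolase Eno3, not among these pairs, is given below with the muscle markers and lay far below Eno1 and Eno2.

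Dim probe sets of the enzymes went their own way. A second gene probe set of Hk1 had 3.98 for control and 9.11 for tumor, and a further one of Pgk1 had 0.84 and 0.19, all below percentile 18 of their arrays, where log2 ratios scatter too widely to be read. The 3 control probe sets for hexokinase had 64.4 and 53.6 at the 3′ end, 43.4 and 37.6 in the middle and 44.4 and 39.1 at the 5′ end. All 3 were lower on the tumor side, with log2 ratios from -0.26 to -0.18, against 0.00 on the brightest probe set. None of the 3 met the signal rule. For each of them, the log2 ratios of the 500 probe sets of most similar signal had an SD of 0.36 to 0.45. The other 7 enzymes have 1 probe set each.

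**Figure D3:**
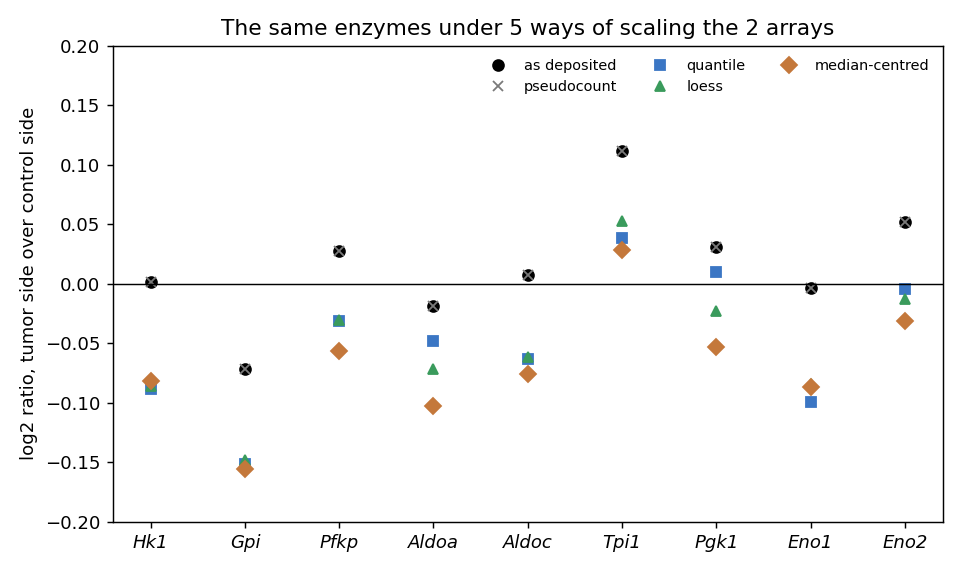
Log2 ratio of tumor over control for the 9 enzymes with the deposited values (black), a pseudocount (cross), quantile normalization (square), loess (triangle) and median-centring (diamond). Tpi1 is above 0 and Gpi, Aldoa and Eno1 are below 0 in all 5, Pgk1 is above 0 in 3, and Hk1, Pfkp, Aldoc and Eno2 are above 0 only with the deposited values and the pseudocount.

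The 9 genes with a promoter window lie on 7 chromosomes, with Eno2 and Tpi1 near each other on chromosome 4 and 4 annotated genes between them. These RefSeq windows of the assembly GRCr8 matched 9 of the 10 genes, Pkm included and Pgk1 not, in 13 windows because Hk1, Aldoa and Eno1 have several starts. Over the 250 bases before a start, the enzyme windows held a median of 16 CpG, against 5 over all 33469 windows, and 11 of the 13 were above that. ACGTG and GCGTG, the core letters that HIF factors are known to bind, were searched on both strands. ACGTG was present in 4 of the 13 windows, against 16.6% of all windows, and GCGTG in 4, against 25.9%. Either was in 7 of 13, against 36.7%. Both cores contain a CpG, and the enzyme windows were richer in CpG, so these shares are not matched for composition. The E-box CACGTG, which contains ACGTG, was in none of the 13 and in 5.59% of all. The letters are a description of these windows, and binding was not measured.

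The windows of the genes with the highest and the lowest log2 ratio and of the isoenzymes known from nervous tissue are shown, each 250 bases before the start, 5′ to 3′ on the strand of the gene, with ACGTG and GCGTG on either strand in capitals (CACGT and CACGC on the strand shown are the reverse). Tpi1 is chr4:159305089-159305338 (minus strand), Gpi chr1:95993262-95993511 (minus strand), Eno2 chr4:159267221-159267470 (minus strand) and Aldoc chr10:63715294-63715543 (plus strand).
Tpi1: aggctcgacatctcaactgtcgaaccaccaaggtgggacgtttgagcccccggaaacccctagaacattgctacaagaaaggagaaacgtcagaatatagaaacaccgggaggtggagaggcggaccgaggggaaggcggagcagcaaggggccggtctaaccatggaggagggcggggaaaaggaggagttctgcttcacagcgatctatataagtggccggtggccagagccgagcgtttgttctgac
Gpi: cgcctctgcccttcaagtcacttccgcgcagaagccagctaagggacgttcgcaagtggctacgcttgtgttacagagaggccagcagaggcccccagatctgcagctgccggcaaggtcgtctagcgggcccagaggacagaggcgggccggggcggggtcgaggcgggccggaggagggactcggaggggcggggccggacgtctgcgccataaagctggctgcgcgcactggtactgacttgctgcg
Eno2: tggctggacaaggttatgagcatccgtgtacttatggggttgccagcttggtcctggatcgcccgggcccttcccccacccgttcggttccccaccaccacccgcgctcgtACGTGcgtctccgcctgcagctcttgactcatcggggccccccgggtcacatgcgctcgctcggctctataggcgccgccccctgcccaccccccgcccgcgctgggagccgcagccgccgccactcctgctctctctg
Aldoc: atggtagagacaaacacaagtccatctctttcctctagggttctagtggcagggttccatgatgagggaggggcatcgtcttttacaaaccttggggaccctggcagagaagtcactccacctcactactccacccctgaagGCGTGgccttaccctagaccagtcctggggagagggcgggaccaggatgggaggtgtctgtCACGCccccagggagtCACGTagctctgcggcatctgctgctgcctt

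Tpi1, with 15 CpG, and Gpi, with 23, held neither core, and their log2 ratios were at opposite ends of the 9. Eno2, with 24 CpG, held ACGTG starting 139 bases before the start. Aldoc, with 6 CpG, held 3 cores, beginning 108, 47 and 31 bases before the start, and its signals differed by 0.51% between the sides. The other cores were in the windows of Pfkp, of both starts of Eno1, of the inner start of Hk1 and of the innermost start of Aldoa. Measured genes with a core in any window had log2 ratios from -0.02 to 0.05, and the measured genes without a core were Gpi at -0.07 and Tpi1 at 0.11.

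Genes around the pathway were read from 10 lists of 112 genes, of which 95 were measured and 77 were above the signal rule. Of these 77, 59 were higher on the tumor side, which is 76.6% against 70.9% of all genes, and 18 were lower. Their median log2 ratio was 0.08, like that of all genes. At a fold of 1.2, 7 were higher, against 12.0% of all genes above the signal rule, and 1 was lower, against 3.99%. The shares at this fold, and the 70.9% by sign, are the background for counts of genes above the signal rule in the single lists below. None of these shares is matched for brightness. None of the 77 was at least 1.5 times higher, as 1.19% of all genes were, and 1 was at least 1.5 times lower, as 0.743% were.

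That 1 was Eno3, the muscle enolase, with 76.9 for control and 47.9 for tumor (log2 ratio -0.68). Only its control-side signal reached the array median. Pgam2 and Pygm, the phosphoglycerate mutase and glycogen phosphorylase of muscle, had 13.8 and 1.39, and 32.0 and 16.8, and did not meet it. Both were named after their values were seen. Skeletal muscle markers had the same direction. Of all 14 measured, with no rule on signal, 13 were lower for tumor, with a median log2 ratio of -1.40 and a summed signal of 3068 for control and 2272 for tumor. Only 9 of the 14 met the signal rule, 7 of them by their control-side signal only, which was the higher one. The exception in direction was Myh1, with 1583 and 1742. The part of muscle in the Eno3 signal was not tested. Aldoa, which muscle also expresses strongly, and Pfkm had log2 ratios of -0.02 and -0.09. Both were brighter than most of these markers, so the size of their ratios cannot show a part of muscle. A second probe set of Pfkm gave 0.18. Pgam1, the mutase of other tissues, had 6488 and 6516, and Pfkl 91.0 and 94.2.

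Glucose transporters differed little, as none of the 5 above the signal rule passed a fold of 1.2. Of these 5, 3 were higher on the tumor side and 1 was above the median gene. Slc2a1, the transporter of barriers and glia, had 420 for control and 442 for tumor, and Slc2a3, the neuronal transporter, had 518 and 510. Slc2a5, a fructose transporter, was the highest with 89.2 and 105 (log2 ratio 0.23), and Slc2a6 had 265 on both sides. Enzymes that set fructose 2,6-bisphosphate, the activator of phosphofructokinase, had a median log2 ratio of 0.18 over the 4 measured genes, and 2 of the 3 above the signal rule passed a fold of 1.2. Pfkfb4 had 58.0 and 77.7 (log2 ratio 0.42), and met the rule through the tumor side alone. Pfkfb2 had 118 and 149 (log2 ratio 0.34), while the much brighter Pfkfb3 had 688 and 702 (log2 ratio 0.03). Further probe sets of Pfkfb2 gave log2 ratios of 0.63, 0.77 and -3.20, all below the signal rule.

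Pyruvate is reduced to lactate or burnt in mitochondria. Of 17 genes of pyruvate and lactate above the signal rule 15 were higher on the tumor side and 10 were above the median gene. A fold of 1.2 was passed by 2. These were Pdp2, a phosphatase that activates pyruvate dehydrogenase, with 104 and 142 (log2 ratio 0.44, and 0.31 on a second probe set), and Pdk4, a kinase that inhibits it, with 181 and 224 (log2 ratio 0.31). The lowest were the related kinases Pdk2, with 156 and 142, and Pdk1, with 196 and 191. Ldha and Ldhb, the subunits of lactate dehydrogenase, had 4076 and 4304, and 5176 and 5341, with log2 ratios of 0.08 and 0.05. None of the 13 citric acid cycle genes passed a fold of 1.2, and their median was 0.08, with Sdhd, a subunit of succinate dehydrogenase, highest at 3058 and 3497 and Sucla2 next at 3548 and 3949. Idh3a and Cs were lowest, with log2 ratios of -0.11 and -0.07. Further probe sets of Cs above the signal rule gave 0.03 and 0.04. In the shuttles that carry glycolytic electrons into mitochondria none of 6 passed a fold of 1.2. Gpd1 was at 222 and 265, Gpd2 at 360 and 391, Mdh1 at 7059 and 7010 and Got2 at 2799 and 2852. A second probe set of Mdh1 above the signal rule gave a log2 ratio of 0.17.

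Side branches of the pathway spread around the median gene. Of 6 pentose phosphate genes 3 were higher on the tumor side and 3 lower, none by a fold of 1.2, with Rpia highest at 160 and 190, followed by Taldo1 at 1513 and 1625, and Pgls lowest at 211 and 192, followed by Pgd at 324 and 306. Of 7 glycogen genes 6 were higher and 3 were above the median gene. Pygl, a glycogen phosphorylase, passed a fold of 1.2 with 258 and 321 (log2 ratio 0.32). Pgm2 followed with 408 and 466, and the lowest were Gys1, a glycogen synthase, with 312 and 288, and Pygb, the phosphorylase of brain, with 3456 and 3527. The only gluconeogenesis gene above the signal rule, Pck2, had 251 and 229.

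**Figure D4:**
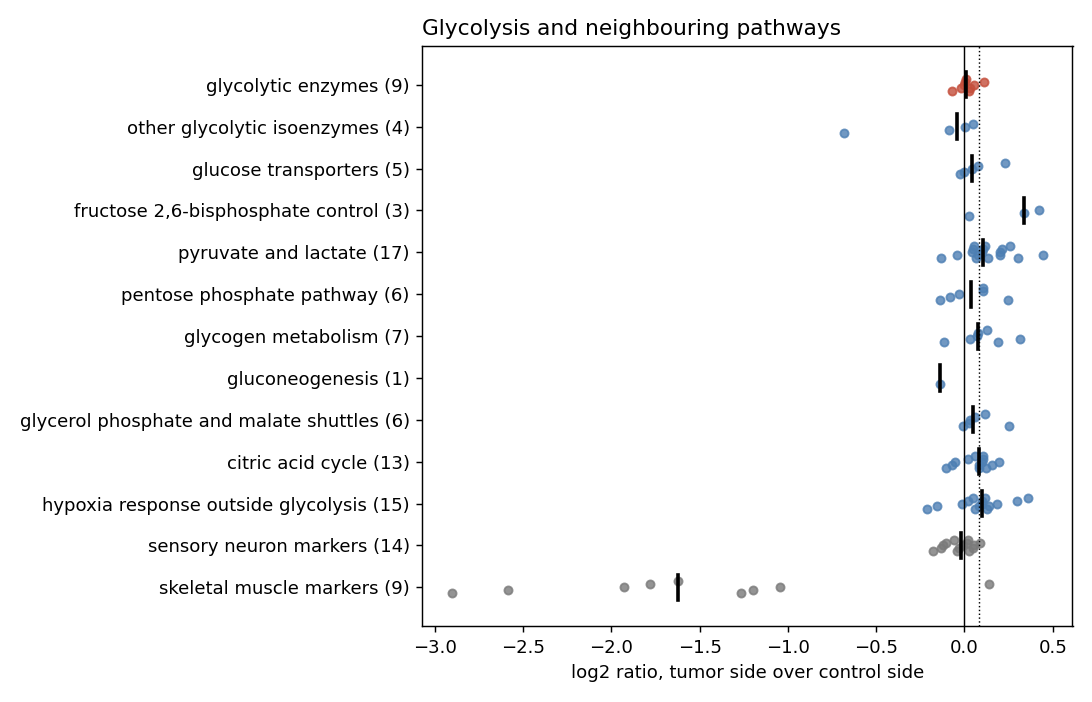
Log2 ratio of tumor over control, 1 point per gene above the signal rule, for glycolytic enzymes (red), the 10 pathway lists (blue) and markers of SNs and skeletal muscle (grey), with the number of genes in brackets. Black bars are list medians and the dotted line is the median gene, 0.08. The enzymes, with a median of 0.01, lie within -0.07 to 0.11, near SN markers at -0.02, while the 9 muscle markers shown have a median of -1.62. Of these 9, 7 reached the array median in the control-side DRGs only, and over all 14 measured the median was -1.40.

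The list of the hypoxia response outside glycolysis, most of it genes that HIF factors are known to induce, was also near the median gene. Of 15 above the signal rule 12 were higher on the tumor side and 9 were above the median gene. The median log2 ratio of the 15 was 0.10, and 2 passed a fold of 1.2. These were Ankrd37, with 69.2 for control and 88.7 for tumor (log2 ratio 0.36), and Kdm3a, a histone demethylase, with 230 and 283 (log2 ratio 0.30). Vegfa, the growth factor of blood vessels, had 230 and 207 (log2 ratio -0.16), and a dim probe set of it gave 0.43. P4ha2, a collagen hydroxylase, was lowest with 234 and 203. Hif1a itself had 2440 and 2609.

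Among cell types, the enzymes lay closest to SN markers in their median, 0.01 and -0.02, and in both lists 1 gene was above the median gene, of 9 enzymes and of 14 markers. Satellite glia and Schwann cell markers had medians of 0.13 and 0.12, over 5 genes each, and fibroblast and macrophage markers of 0.20 and 0.13. Endothelial markers had 0.23 over 2 genes, and none of 4 adipocyte markers met the signal rule. Apoe, Pmp22 and Dcn, the brightest markers of satellite glia, Schwann cells and fibroblasts, had log2 ratios of -0.03, -0.02 and -0.02. A ratio near 0 was thus not particular to SN markers. The other 4 genes above the signal rule in each of these lists were higher on the tumor side. The summed signal of the SN markers was 87588 for control and 87015 for tumor. Erythroid markers, of cells that also express glycolytic enzymes, had a summed signal of 4434 and 3429 over the 6 measured genes, all lower for tumor, and granulocyte markers 1167 and 561 over 5, of which 4 were lower, and their part in the enzyme signals was not tested. Bone markers were higher on the tumor side, with 905 and 1914 over 8 measured genes, of which 7 were higher. Medians over all measured genes were -0.43 for erythroid, -0.999 for granulocyte and 0.94 for bone markers. Signal heights of different genes depend on their probes, so the log2 ratios of the 9 enzymes cannot show the part of these cells.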

How the data were processed

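The authors hybridized biotinylated cRNA, made from 100 ng of total RNA, to rat genome GeneChips and derived signal intensity values with MAS5 at default settings, which includes background correction and the summary of probes. These deposited intensity values, on a linear scale, were used without further normalization for 2 arrays. No detection calls were used, and no source used here gives the scaling target. The number of arrays limits the precision.

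Log2 ratios of tumor over control were computed without a pseudocount. Of 31042 probe sets beside 57 control probe sets, 20826 have 1 gene symbol, 436 several, and 9780 are unnamed here. A gene was represented by its brightest probe set. Counts use a fold of 1.2. No test was made. The SD between probe sets used the 2 brightest of each gene above the signal rule, over 56 to 713 genes. The mean signal of such a pair had to lie within a fold of 2 of the enzyme's, while its 2 probe sets could differ more. Named were all members and, from each of the 10 pathway lists, the 2 highest and 2 lowest genes above the signal rule and any past a fold of 1.5; marker lists are given as counts, medians and sums. Ldha, Ldhb, Hif1a, Hk2, Pgam2, Pygm, Myh1, Apoe, Pmp22 and Dcn were added after their values were seen. Members and lists were chosen with earlier results of these data known. The procedure was tested on simulated data. The software was matplotlib 3.10.9, statsmodels 0.14.6, pandas 2.3.3 and numpy 2.4.6 under Python 3.11.15.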

Additional observations from a re-analysis of the deposited data

How the results depend on the processing

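The sign of these small log2 ratios depended on how the arrays were scaled. The number of the 9 enzymes higher on the tumor side was 2 after quantile normalization and 1 each after loess (span 0.3) and median-centring, against 6 with the deposited values, and the median of the enzymes was -0.05, -0.06 and -0.076. Centring takes the median of the probe sets above the signal rule from each log2 ratio by construction. A pseudocount of 11.1 left the median at 0.01. The number past a fold of 1.2 was 0 under every scaling and every filter run, and 2 when all probe sets of a gene were averaged, where the dim probe sets move Hk1 to 0.60 and Pgk1 to -0.70. With the second brightest probe set it was 1, as Hk1 had 1.19. With the mean over probe sets above the signal rule, chosen after seeing the data, it was 0. At folds of 1.5 and 2 it was 0. Of the 9 single enzyme values, 6 moved by more than the SD between probe sets of 1 gene under median-centring, 2 under quantile normalization and none under loess or the pseudocount. The filters and the exclusion of probe sets open to cross-hybridisation left each value as it was by construction, as did the probe set choices for the 7 enzymes with 1 probe set. No paired analysis was possible because there is 1 array for either side. All 9 enzymes were bright, and what the signal limits is the reading of their dim probe sets.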
